A study of Mus musculus with 18 samples.

Results

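GW1516, a synthetic agonist of the nuclear receptor PPARδ, was compared with its own control in the NaF line of mouse mammary carcinoma cells over 22180 genes. The comparison used 6 of the 18 Affymetrix arrays of the study, chosen by their sample titles: 3 of cells given GW1516 at 1 µM for 6 h and 3 of control cells. Cells of both groups were grown in DMEM with 10% serum, which was replaced with charcoal-treated serum, stripped of most lipophilic ligands, 48 h before the treatment. The 3 arrays of retinoic acid, the natural ligand of the retinoic acid receptors (RAR), and the 3 of TTNPB, a synthetic RAR agonist, had the same serum, dose and time. The other 6 arrays, of cells in full serum with or without palmitate, entered the fit for its estimate of the spread alone. No vehicle, genotype or transgene is named in the labels, and all groups are of 1 cell line.

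PPARδ sits on DNA as a heterodimer with a retinoid X receptor (RXR), at direct repeats of the hexamer AGGTCA, and ligand binding exchanges corepressors for coactivators. It is known for raising the genes that move fatty acids into mitochondria and oxidise them, among them Cpt1a, Slc25a20, Pdk4, Angptl4 and Plin2. FABP5, the fatty acid-binding protein named in the title of the study, is known as a carrier that delivers ligands to PPARδ, while CRABP2 delivers retinoic acid to RAR.

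Values are on the log2 scale, so a difference of 1 is a doubling, and each gene is read from 1 probe set, which makes levels comparable between arrays but not between genes. Background was read from 1394 olfactory and vomeronasal receptor genes, whose group means had a 95th percentile of 1.31 in control and 1.30 in GW1516. GW1516 replicate 3 stood apart: its median over the receptor genes was 0.99 against 0.68 and 0.72 in the other GW1516 arrays, and its limma array weight was 0.122 against 0.514 to 1.97 in the other charcoal-serum arrays. Results are therefore given with and without GW1516 replicate 3. Control replicate 2 departed in the same direction by less. Its median over the receptor genes was 0.86 against 0.76 and 0.75 in the other controls, and its weight, 0.514, was the next lowest. The epithelial genes Krt18 (7.99 in control), Cldn3 (8.43), Erbb2 (7.25) and Cdh1 (4.88) were well above background, while Krt8 (1.68) and Epcam (1.51) were near it. Vim, an intermediate filament of mesenchymal cells, was at 10.6. None of the 68 measured entries of 7 cell type marker lists passed limma's test. Of the 68, 6 had an unadjusted p under 0.05, beside 15.4% of all genes. The summed level of 8 endothelial markers ranged from 8.84 to 9.02 in control and from 7.39 to 8.78 with GW1516; Cdh5 was the 1 of them above background, Pecam1 was at 1.15 in control, and the part of this list in the results was not tested. The luminal list, with 10 of 19 above background, summed to 9.77 to 9.82 in control and to 9.75 to 10.0 with GW1516. The labels do not say that replicates are separate cultures, so p-values measure the spread between these arrays, which may be technical.

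GW1516 raised more genes than it lowered. With all arrays, 570 of 22180 genes (2.57%) passed limma's moderated test at an adjusted p of 0.05, 419 upward (1.89% of genes) and 151 downward (0.681%). Above background in both groups were 10441 of all genes, 407 of the 419 and 130 of the 151. The shares of all genes set beside each list below are therefore lower than shares of expressed genes would be. The changes were small, with a median of 0.67 among the genes that rose and -0.55 among those that fell, and 35 and 9 genes reached 2-fold. Without replicate 3 the count was 711 (3.21%), with 498 up (2.25%) and 213 down (0.96%), and 417 genes passed in both fits, 309 upward and 108 downward. The arrays of the 2 groups did not overlap for 3610 genes (16.3%), 8.25% above and 8.03% below. Among them were 568 of the 570 called genes, so for a called gene the lack of overlap described below adds no support.

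Replicate 3 was also set beside the genes called without it. Of the 498 genes called higher without replicate 3, the replicate was above all 3 controls in 360 (72.3%), beside 42.0% of all genes. Of the 213 called lower it was below all controls in 144 (67.6%), beside 26.5% of all genes. Its median distance from the control mean was 0.46 in the first set, where the other 2 arrays gave 0.66, and -0.33 in the second, where they gave -0.45. The genes were chosen against the same 3 controls, so these values are a description and no independent check of the calls.

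**Figure D1:**
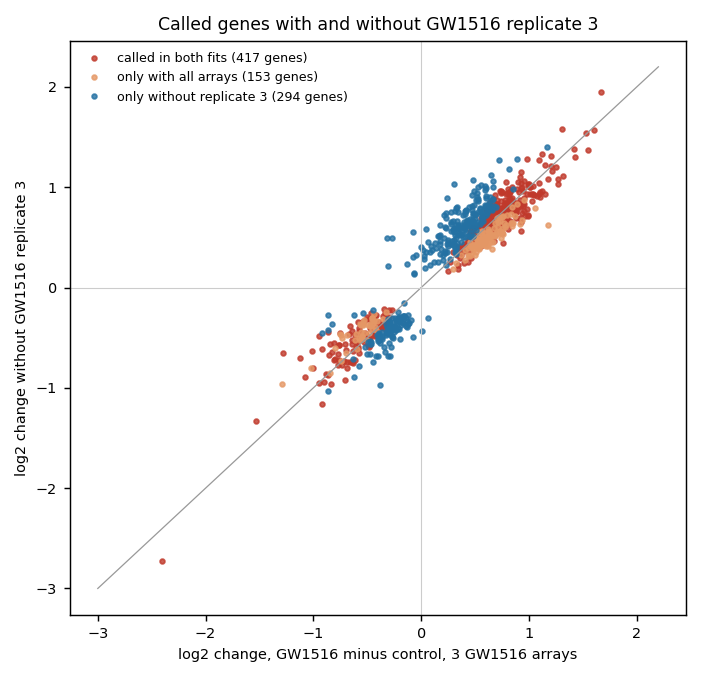
Log2 change of each called gene with all 3 GW1516 arrays (x axis) and without replicate 3 (y axis), coloured by the fit in which it was called; the diagonal marks equal changes. Some of the 417 genes called in both fits, such as Fam207a and Zmynd19, lie away from the diagonal. No gene called in both changed direction, but the fits share all arrays except replicate 3, so this is no independent check.

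The count depended on the control arrays and on the scaling. It was 198 without control replicate 2, 292 without control replicate 1 and 435 without control replicate 3, and 147 genes (116 up, 31 down) kept their call with each of the 6 arrays left out in turn. Fitted on the 6 arrays alone, with 4 residual degrees of freedom, 3 genes passed (Arrdc3, Ero1a and Uprt), and 3412 genes (15.4%) had an unadjusted p under 0.05 in the fit on all 18 arrays. Genes that rose made up 73.5% of the 570 calls, 58.9% of 812 calls after quantile normalization and 90.2% of 266 calls after centring the arrays on their medians. A gene described below as robust kept its call in each of the leave-one-out fits and under both scalings; for the other genes the arrays on which the call depended are named.

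The receptors themselves did not pass the test with all arrays (0 of 6 in limma's fit). Of the 6, 2 had an unadjusted p under 0.05, beside 15.4% of all genes. Ppard, which encodes the target of GW1516, was measured at 5.74, 5.37 and 5.59 in control and at 5.57, 5.97 and 6.30 with GW1516, ranges that overlapped, a difference of 0.38 (SE 0.15, limma adjusted p = 0.23). It was 0.20 (adjusted p = 0.47) without replicate 3, its highest array, and 0.57 (adjusted p = 0.043), a call, without GW1516 replicate 1, its lowest. Its partners Rxra and Rxrb were also above background, with differences of 0.05 (adjusted p = 0.91) and -0.13 (adjusted p = 0.71). Ppara and Pparg, which encode the other PPARs, had control means of 1.19 and 0.81, below background. Fabp5 was at 4.08, 4.50 and 4.19 in control and at 4.08, 4.13 and 4.56 with GW1516, a difference of 0.00 (SE 0.18, adjusted p = 0.998). Crabp2 was near background, between 1.14 and 1.58 in all 6 arrays.

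Among 33 measured genes of a list of known PPAR targets, 4 rose (Cpt1a, Klf10, Acadl and Acadm) and none fell, beside 1.89% and 0.681% of all genes. Of the 33, 21 were above background, and the median change of the list was 0.08 against -0.01 for all genes. At an unadjusted p under 0.05, 11 rose and 0 fell, beside 15.4% of all genes in either direction. Without replicate 3 the call of Acadm was lost, those of Plin2, Cat and Acot2 were gained and Pdk4 fell, which gave 6 up and 1 down. Without control replicate 1 or control replicate 2, and after centring, the counts were 2 up and 0 down.

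Cpt1a, the outer-membrane carnitine acyltransferase that commits long-chain fatty acids to the mitochondria, had the smallest adjusted p of the list. It was at 7.15, 7.01 and 7.20 in control and at 7.91, 7.84 and 7.75 with GW1516, so that each treated array lay above each control array. The rise was 0.71 (SE 0.10), or 1.64-fold, with a limma adjusted p of 0.00116, and 0.76 without replicate 3. Klf10, a transcriptional repressor that responds to TGF-β, was at 7.69, 7.46 and 7.50 in control and at 8.06, 8.20 and 8.22 with GW1516. The groups did not overlap, and the rise was 0.61 (SE 0.10, adjusted p = 0.00431). Both Cpt1a and Klf10 were robust.

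The acyl-CoA dehydrogenases, which catalyse the first step of β-oxidation, moved by less or less evenly. Acadl, the long-chain enzyme, was at 6.25, 6.10 and 6.33 in control and at 6.62, 6.72 and 6.71 with GW1516. Its rise of 0.45 (SE 0.11, adjusted p = 0.031) was no longer called without control replicate 1 (adjusted p = 0.0789), control replicate 2 (0.14) or GW1516 replicate 2 (0.0667), nor after centring. Acadm, the medium-chain enzyme, was at 6.18, 5.71 and 6.06 in control and at 6.37, 6.43 and 7.02 with GW1516, where replicate 3 was the highest. Its rise of 0.62 (adjusted p = 0.0497) was 0.41 (adjusted p = 0.121) without replicate 3, and the call was also lost without any 1 of the 3 controls and under both scalings. Acadvl, the very-long-chain enzyme, ranged from 3.37 to 4.31 in control and from 4.07 to 4.59 with GW1516, a difference of 0.37 (adjusted p = 0.48).

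Several classical targets gave no call with all arrays. Plin2, a coat protein of lipid droplets, was at 6.78, 6.68 and 6.81 in control and at 7.14, 7.54 and 6.63 with GW1516. Replicate 3 alone lay below the controls, and the difference was 0.35 (adjusted p = 0.29) with it and 0.58 (adjusted p = 0.00796) without it. Slc25a20, the carnitine-acylcarnitine carrier that works downstream of Cpt1a, was at 4.88, 4.60 and 5.08 in control and at 5.14, 5.27 and 5.54 with GW1516. These groups did not overlap, but the difference of 0.47 (SE 0.20) did not pass (adjusted p = 0.26).

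Pdk4, a kinase that inhibits pyruvate dehydrogenase, was near background, at 1.39, 1.54 and 1.53 in control and at 1.05, 0.96 and 1.64 with GW1516. Its difference was -0.27 (adjusted p = 0.41) with replicate 3 and -0.48 (adjusted p = 0.0438) without it. Angptl4, a secreted inhibitor of lipoprotein lipase, was below background in all 6 arrays. Pdpk1, a kinase upstream of Akt, differed by 0.40 (adjusted p = 0.30), with its highest value in replicate 3, and by 0.09 (adjusted p = 0.72) without it. Cat, the peroxisomal catalase, differed by -0.14 (adjusted p = 0.78), with its lowest value, 9.14, in replicate 3, and was higher by 0.23 (adjusted p = 0.0455) without it. Acot2, a mitochondrial thioesterase, was at 5.52, 5.44 and 5.30 in control and at 6.22, 6.08 and 4.59 with GW1516, so that replicate 3 lay on the other side of the controls. It differed by 0.21 (adjusted p = 0.77) with replicate 3 and by 0.73 (adjusted p = 0.0015) without it. Ncor1 was not analysed here.

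The promoter windows of the 3 risen PPAR targets held in the reference table are shown because PPAR response elements are built from the hexamer. Each is the 300 bases from 250 before to 50 after the annotated start, taken from RefSeq on GRCm38.p6 and read 5′ to 3′ on the strand of the gene, with AGGTCA or its complement TGACCT in capitals. The window of Cpt1a is chr19:3323051-3323350 on the plus strand, that of Acadm is chr3:153944594-153944893 on the minus strand and that of Acadl is chr1:66863260-66863559 on the minus strand.
Cpt1a: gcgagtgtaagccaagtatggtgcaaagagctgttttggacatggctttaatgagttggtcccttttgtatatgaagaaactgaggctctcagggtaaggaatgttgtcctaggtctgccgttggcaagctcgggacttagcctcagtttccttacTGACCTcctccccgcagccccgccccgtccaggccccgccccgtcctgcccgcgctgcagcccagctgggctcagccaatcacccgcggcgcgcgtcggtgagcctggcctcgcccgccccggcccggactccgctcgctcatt
Acadm: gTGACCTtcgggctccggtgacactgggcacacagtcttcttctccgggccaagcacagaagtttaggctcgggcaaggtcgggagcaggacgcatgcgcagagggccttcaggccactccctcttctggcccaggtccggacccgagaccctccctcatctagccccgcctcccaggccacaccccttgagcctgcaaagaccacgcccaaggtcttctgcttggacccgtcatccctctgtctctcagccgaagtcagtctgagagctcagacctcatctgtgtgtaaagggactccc
Acadl: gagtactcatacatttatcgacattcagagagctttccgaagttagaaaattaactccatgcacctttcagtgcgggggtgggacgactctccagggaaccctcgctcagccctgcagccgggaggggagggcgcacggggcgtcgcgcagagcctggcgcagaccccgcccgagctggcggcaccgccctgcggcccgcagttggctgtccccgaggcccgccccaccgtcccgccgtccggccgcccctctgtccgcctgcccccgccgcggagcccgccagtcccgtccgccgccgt
Cpt1a and Acadm each had 1 hexamer in this window and Acadl had 0. Promoters were matched for 16918 of the 22180 genes. At least 1 hexamer on either strand was found in 51 of the 340 matched genes that rose (15.0%), in 18 of the 116 that fell (15.5%) and in 16.4% of all those matched, while 10 of the 26 PPAR targets (38.5%) had one. A full element, 2 hexamers in the same direction with 1 base between, was in 0.065% of all matched promoters, 11 genes, and in 0 of the called ones. With so rare an element, 0 was the likely count whichever genes were called, so it does not show that they lack one. Only exact hexamers within this window were searched.

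The fatty acid oxidation genes that rose were the 3 already described. Of 33 measured genes for mitochondrial and peroxisomal β-oxidation, Cpt1a, Acadm and Acadl rose (9.09%, beside 1.89% of all genes) and none fell, with a median change of 0.08 (0.07 after quantile normalization, 0.11 after centring). The count was 2 without replicate 3, and 1 without control replicate 1 or 2 and after centring. Among 80 measured subunits of oxidative phosphorylation 0 were called in either direction by limma, with a median of -0.08. At an unadjusted p under 0.05, 1 of the 80 was higher and 11 were lower, beside 15.4% of all genes in either direction. Without replicate 3 the adjusted count was 1 each way. The number that fell was 3 without GW1516 replicate 1 and 5 without GW1516 replicate 2.

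The family of mitochondrial solute carriers was called in both directions with all arrays. After centring, and also without control replicate 1, 3 rose and 0 fell. Of its 46 measured members, 5 rose (Slc25a34, Slc25a36, Slc25a40, Slc25a42 and Slc25a24) and 2 fell (Slc25a15 and Slc25a5), or 10.9% and 4.35% beside 1.89% and 0.681% of all genes. After quantile normalization 5 rose and 3 fell, and without replicate 3 the counts were 5 and 2. They were 3 and 0 without control replicate 1, 3 and 2 without control replicate 2, and 5 and 1 without control replicate 3. Slc25a34, a carrier whose substrate is not well established, was at 2.73, 3.13 and 2.90 in control and at 4.21, 4.24 and 4.60 with GW1516. The gap between the groups was over 1 on the log2 scale, and the rise was 1.43 (SE 0.25), or 2.69-fold (adjusted p = 0.00523), and 1.31 (adjusted p = 0.0122) without replicate 3.

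Slc25a42, which carries coenzyme A into mitochondria, was at 7.45, 7.68 and 7.57 in control and at 8.11, 8.11 and 8.07 with GW1516, with the 3 treated arrays nearly equal and above the controls. Its rise was 0.53 (SE 0.09, adjusted p = 0.00527). Slc25a36, a carrier of pyrimidine nucleotides, was at 5.42, 5.14 and 5.52 in control and at 6.38, 6.31 and 6.06 with GW1516. The groups did not overlap, and the rise was 0.89 (SE 0.14, adjusted p = 0.00236).

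Slc25a34, Slc25a36 and Slc25a42 were robust. Slc25a24, a carrier of ATP-Mg and phosphate, rose by 0.48 (adjusted p = 0.0196), a call lost without control replicate 1 (0.0637) or 2 (0.0703) and after centring. Slc25a15, the ornithine carrier, fell by 0.61 (adjusted p = 0.0258), a call lost without control replicate 1 (0.119), control replicate 3 (0.072) or GW1516 replicate 2 (0.0712) and after centring. Slc25a40, linked to glutathione import, rose by 0.61 (adjusted p = 0.0367), a call lost without either of control replicates 1 and 2 or GW1516 replicates 1 and 2 and after centring.

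**Figure D2:**
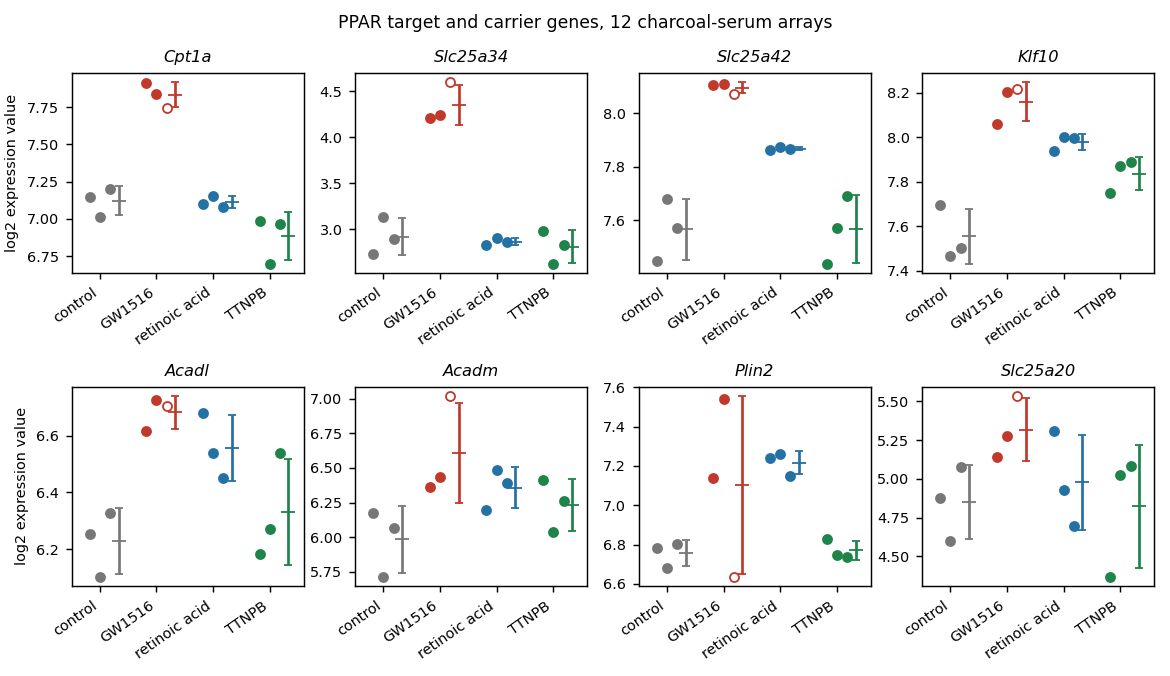
Log2 expression value of 8 genes in each of the 12 charcoal-serum arrays; points are single arrays, the open point is GW1516 replicate 3, and the bar beside each group is the mean ± SD (n = 3). The GW1516 arrays of Cpt1a, Slc25a34, Slc25a42 and Klf10 all lie above the control arrays, while replicate 3 of Plin2 lies below them.

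Other lipid genes moved in both directions. Mfsd2a, the transporter of lysophosphatidylcholine-bound omega-3 fatty acids, fell from 8.32, 8.35 and 8.28 to 7.49, 7.36 and 6.88. The GW1516 arrays lay far below the controls, with a fall of 1.07 on the log2 scale (SE 0.13, adjusted p = 0.000514), and the call was robust. Abca1, the cholesterol exporter and a classical target of the liver X receptors, rose from 3.31, 3.50 and 3.11 to 4.38, 4.34 and 3.89. No arrays overlapped, the rise was 0.90 (SE 0.15, adjusted p = 0.00375), and it too was robust.

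Of 25 measured genes of fatty acid synthesis and its regulation, 3 rose (Abca1, Elovl7 and Scd1) and 1 fell (Fasn), beside 1.89% and 0.681% of all genes, and 1 rose without control replicate 1 or 2. Fasn, the fatty acid synthase, fell by 0.34 on the log2 scale (adjusted p = 0.0129), a call lost without control replicate 1 (0.0637) and after centring. Scd1, the stearoyl-CoA desaturase, rose by 0.34 (adjusted p = 0.0325), a call lost without any 1 of the controls (0.0663 to 0.129). Elovl7, an elongase, rose by 0.79 (adjusted p = 0.0246), a call lost without control replicate 1 (0.0523), control replicate 2 (0.126) or GW1516 replicate 3 (0.0639). Acsl4, which activates arachidonic acid, rose by 0.68 (adjusted p = 0.0302), a call lost without any 1 of the controls or GW1516 replicate 3. In cholesterol synthesis 1 of 21 measured genes was called: Sqle, squalene epoxidase, fell by 0.64 on the log2 scale (adjusted p = 0.0252), a call lost without any 1 of the controls and after centring.

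Part of the DNA replication genes fell with GW1516. Of 42 measured replication genes 7 fell (Cdc6, Mcm3, Mcm5, Mcm6, Pola2, Rrm2 and Tk1) and 1 rose (Pola1), beside 0.681% and 1.89% of all genes, and 39 of the 42 had a negative difference. The median was -0.32 (-0.34 after quantile normalization and -0.29 after centring), against -0.01 for all genes. The number that fell was 9 without replicate 3, ranged from 3 to 10 with each array left out in turn, and was 15 after quantile normalization and 1 after centring. It was 3 without control replicate 1 and 4 without control replicate 2.

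Cdc6, which loads the replicative helicase at origins, was at 6.53, 6.41 and 6.58 in control and at 5.47, 5.67 and 5.68 with GW1516. All treated arrays were below all controls, with a fall of 0.90 on the log2 scale (SE 0.11), 1.87-fold, and an adjusted p of 0.000514, and the call was robust. Mcm3, a subunit of that helicase, was at 8.13, 8.04 and 8.16 in control and at 7.64, 7.67 and 6.76 with GW1516, replicate 3 being the lowest. Its fall was 0.75 on the log2 scale (adjusted p = 0.0161) and 0.45 (adjusted p = 0.00136) without replicate 3, and the call was lost without any 1 of the controls (0.0511 to 0.0563) and after centring. Pola2, the accessory subunit of DNA polymerase α, was at 8.02, 7.75 and 8.09 in control and at 7.48, 7.40 and 7.39 with GW1516. Its fall of 0.53 on the log2 scale (adjusted p = 0.00375) held with each array left out and was lost after centring. Pola1, the catalytic subunit of the same polymerase, went the other way, from 4.17, 4.12 and 4.46 to 4.83, 4.83 and 5.09, a rise of 0.66 (adjusted p = 0.00852) that was lost without control replicate 2 (0.0501).

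Genes of mitosis were called in both directions with all arrays, while after centring 4 rose and 0 fell. Of 37 measured, 6 rose (Ttk, Kif11, Cenpe, Top2a, Mki67 and Hmmr) and 4 fell (Cdc20, Plk1, Aurkb and Bub3), or 16.2% and 10.8% beside 1.89% and 0.681% of all genes, with a median of -0.06. The counts were 8 and 5 after quantile normalization and 7 and 3 without replicate 3. They were 3 and 2 without control replicate 1, 2 and 2 without control replicate 2, and 6 and 2 without control replicate 3 or GW1516 replicate 2. Kif11, the kinesin that separates spindle poles, was at 7.06, 6.92 and 7.04 in control and at 7.82, 7.78 and 7.64 with GW1516, a rise of 0.74 (SE 0.13, adjusted p = 0.00456). Cenpe, a kinetochore motor, was at 4.76, 4.61 and 4.88 in control and at 5.54, 5.37 and 5.62 with GW1516, a rise of 0.76 (SE 0.13, adjusted p = 0.00466). In both genes the groups did not overlap and the call was robust.

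Aurkb, the kinase of the chromosomal passenger complex, was at 7.76, 7.71 and 7.76 in control and at 7.23, 7.34 and 6.66 with GW1516. Its fall was 0.67 on the log2 scale (adjusted p = 0.00837), 0.46 without replicate 3, and was lost after centring. Top2a, the topoisomerase of dividing cells, rose by 0.65 (adjusted p = 0.0103), a call lost without control replicate 2 (0.0664). Ttk, a spindle checkpoint kinase, rose by 0.70 (adjusted p = 0.0113), a call lost without control replicate 1 (0.0571) or 2 (0.0513). Hmmr, a spindle-associated hyaluronan receptor, rose by 0.65 (adjusted p = 0.047), a call lost without control replicate 1 (0.0756), control replicate 2 (0.214), GW1516 replicate 1 (0.105) or GW1516 replicate 2 (0.0923) and after centring.

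**Figure D3:**
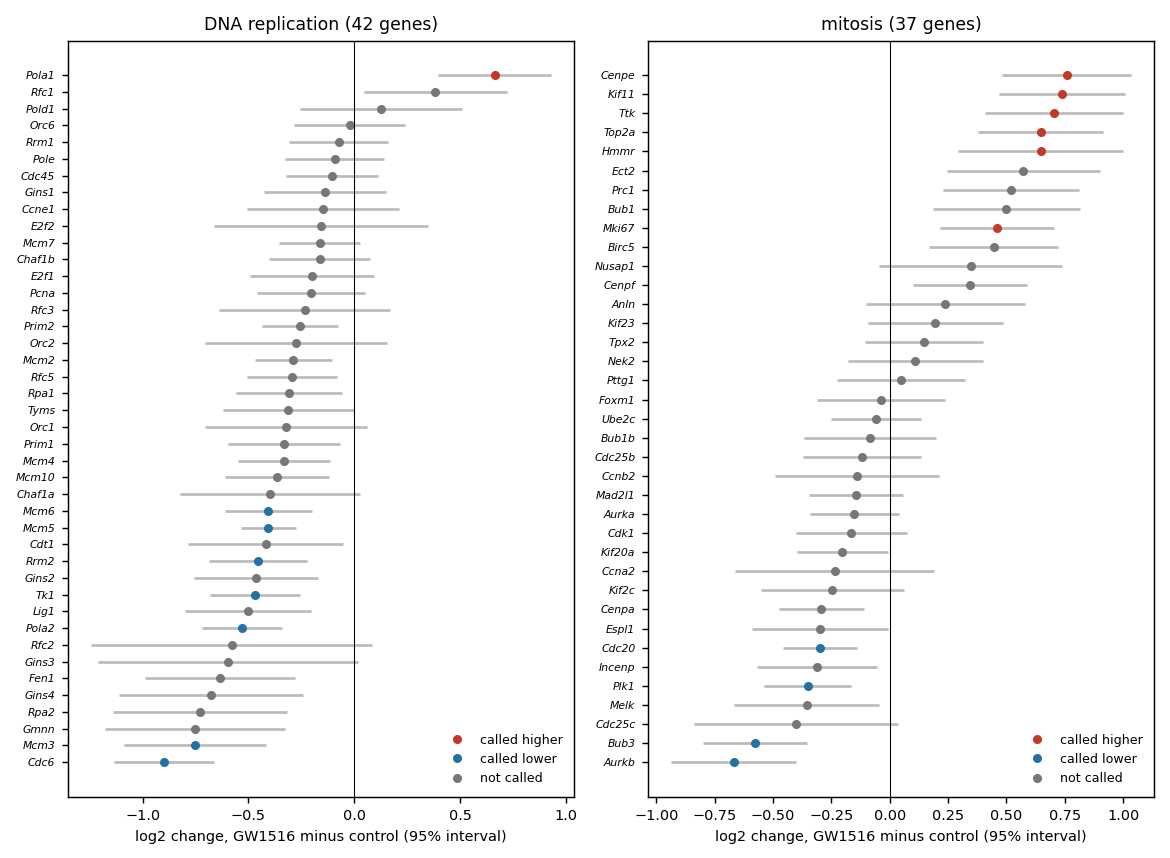
Log2 change with GW1516 of the 42 replication and 37 mitosis genes, sorted by size; points are estimates, lines their 95% intervals from the limma fit, and colour marks the call. Of the replication genes 39 lie left of 0, while the mitosis genes lie on both sides.

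Some genes tied to growth arrest and to FOXO activity rose. Of 31 measured, 4 rose (Cdkn1b, Sesn3, Trp53inp1 and Bcl2), or 12.9% beside 1.89% of all genes, and none fell, with the same counts without replicate 3. Cdkn1b, the CDK inhibitor p27, was at 6.39, 6.26 and 6.39 in control and at 6.93, 7.02 and 7.03 with GW1516, a rise of 0.65 (SE 0.10, adjusted p = 0.00237) with no overlap. Sesn3, a sestrin that restrains mTORC1, was at 5.62, 5.71 and 5.62 in control and at 6.37, 6.31 and 6.36 with GW1516, a rise of 0.70 (SE 0.12, adjusted p = 0.00418) with no overlap. Trp53inp1, a p53 target, rose by 0.80 (adjusted p = 0.00944), and these 3 calls were robust. Bcl2, the apoptosis inhibitor, rose by 0.65 (adjusted p = 0.0194), a call lost without control replicate 1 (0.0628), control replicate 2 (0.0975) or GW1516 replicate 2 (0.0579) and after centring.

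The α-arrestins had the highest share of calls among the lists, 3 of 6 measured (Arrdc3, Arrdc4 and Txnip) beside 1.89% of all genes. The lists were chosen with earlier results of these data known, so this rank is a description and no support. The 3 calls held in each leave-one-out fit and under both scalings. Against the same controls, 3 of the 6 also rose with retinoic acid and 3 with TTNPB. Arrdc3, an adaptor that directs receptors to degradation, was at 5.69, 5.79 and 6.08 in control and at 7.22, 7.24 and 7.34 with GW1516. The groups were separated by more than 1, and the rise was 1.41 (SE 0.11), or 2.67-fold, with an adjusted p of 1.44e-06. Txnip, the thioredoxin-binding inhibitor of glucose uptake, was at 8.72, 8.68 and 8.82 in control and at 9.51, 9.55 and 9.03 with GW1516, replicate 3 lying nearest to the controls. Its rise was 0.62 (adjusted p = 0.00237) and 0.79 without replicate 3. Arrdc4, its close relative, rose by 0.80 (adjusted p = 0.0072).

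Genes of the integrated stress and unfolded protein responses rose in part. Of 39 measured, 7 rose (Ddit3, Slc7a11, Slc3a2, Slc7a5, Slc1a4, Hsp90b1 and Ern1) and 0 fell, or 17.9% up beside 1.89% of all genes. The counts were 7 and 1 without replicate 3, and 3 rose without either control replicate 1 or control replicate 2. Against the same controls, 11 of the 39 rose and 1 fell with retinoic acid, and 3 rose and 0 fell with TTNPB. Ddit3, the transcription factor CHOP, was at 3.99, 3.58 and 4.02 in control and at 4.88, 4.94 and 5.05 with GW1516, a rise of 1.09 (SE 0.15, adjusted p = 0.000984) without overlap. Slc7a11, the cystine importer, was at 3.59, 3.72 and 3.99 in control and at 5.02, 4.73 and 5.49 with GW1516, a rise of 1.31 (SE 0.20, adjusted p = 0.0017), also without overlap. A second probe set of Slc7a11, below background, differed by -0.10. Hsp90b1, the endoplasmic reticulum chaperone GRP94, was at 8.34, 8.34 and 8.41 in control and at 9.01, 8.93 and 8.92 with GW1516, a rise of 0.59 (SE 0.07, adjusted p = 0.000514).

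Ddit3, Slc7a11 and Hsp90b1 were robust. Slc1a4, a transporter of small neutral amino acids, rose by 0.75 (adjusted p = 0.0253), a call lost without control replicate 1 or 2 or GW1516 replicate 1 or 2 and after centring. Slc7a5, the leucine transporter, rose by 0.34 (adjusted p = 0.0417), a call lost without any 1 of the controls and after quantile normalization. Ern1, the stress sensor IRE1α, rose by 0.54 (adjusted p = 0.0497), a call lost without control replicate 1 or 2 or GW1516 replicate 1 or 3 and after centring.

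Among 37 measured immediate early genes, 4 rose (Nr4a1, Nr4a3, Dusp4 and Id4), or 10.8% beside 1.89% of all genes, and none fell. The number that rose was 8 without replicate 3, 1 without control replicate 2, and 2 without control replicate 1, control replicate 3 or GW1516 replicate 1. Id4, an inhibitor of basic helix-loop-helix factors, was at 3.40, 2.86 and 3.45 in control and at 4.72, 4.30 and 3.96 with GW1516, a rise of 1.09 (adjusted p = 0.0144) that was lost without control replicate 2 or GW1516 replicate 1. Nr4a1, an orphan nuclear receptor, was at 9.58, 9.57 and 9.61 in control and at 9.89, 9.88 and 10.4 with GW1516, a rise of 0.46 (adjusted p = 0.0117) that was lost without control replicate 2.

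Of 17 measured nuclear receptor coregulators 3 rose (Ppargc1a, Tbl1xr1 and Lcor), or 17.6% beside 1.89% of all genes, and 0 fell. Ppargc1a, the coactivator PGC-1α that drives mitochondrial biogenesis and partners PPARs, was at 7.40, 7.41 and 7.41 in control and at 8.09, 8.17 and 8.03 with GW1516. The controls nearly coincided, and the rise was 0.69 (SE 0.09, adjusted p = 0.000514). Tbl1xr1, an exchange factor of the NCoR corepressor complex, was at 5.58, 5.26 and 6.29 in control and at 6.87, 6.86 and 7.02 with GW1516, a rise of 1.21 (SE 0.20, adjusted p = 0.00321) without overlap. Ppargc1a and Tbl1xr1 were robust. Lcor, a ligand-dependent corepressor, rose by 0.53 (adjusted p = 0.033), a call lost without control replicate 2 or GW1516 replicate 2 or 3 and after centring. Ncoa1, the coactivator SRC-1, differed by 0.39 (adjusted p = 0.43), with its lowest GW1516 value, 4.97, in replicate 3, and by 0.73 (adjusted p = 0.0318) without it.

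Part of the genes of transcription elongation and splicing fell. Of 32 measured, 6 fell (Nelfa, Hexim1, Ppp1r10, Srsf2, Srsf6 and Srsf9) and none rose, or 18.8% down beside 0.681% of all genes, although the median of the list was -0.04. Without replicate 3, 5 fell and 1 rose. The number that fell was 3 without control replicate 1 or 3 and after centring, and 4 without control replicate 2 or GW1516 replicate 2. Srsf2, a splicing factor that recognises exonic enhancers, was at 9.05, 8.95 and 9.04 in control and at 8.46, 8.24 and 8.02 with GW1516, a fall of 0.77 on the log2 scale (SE 0.10, adjusted p = 0.000514) without overlap. Nelfa, a subunit of the negative elongation factor, was at 7.16, 6.79 and 7.12 in control and at 6.27, 6.02 and 6.17 with GW1516, a fall of 0.87 on the log2 scale (SE 0.15, adjusted p = 0.0048). Srsf6, a relative of Srsf2, fell by 0.70 on the log2 scale (adjusted p = 0.00236).

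Srsf2, Srsf6 and Nelfa were robust. Hexim1, which sequesters the elongation kinase P-TEFb, fell by 0.84 on the log2 scale (adjusted p = 0.0258), a call lost without control replicate 1 or 3 or GW1516 replicate 1 or 2 and after centring. Ppp1r10, a regulatory subunit of protein phosphatase 1, fell by 0.70 (adjusted p = 0.0442), a call lost without any 1 of the controls or GW1516 replicates 1 and 2 and after centring. Srsf9 fell by 0.54 (adjusted p = 0.0446), a call lost without any 1 of the controls or GW1516 replicate 3 and after centring.

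Of 85 measured small nuclear and nucleolar RNAs, 2 rose and 7 fell, or 2.35% and 8.24% beside 1.89% and 0.681% of all genes, with a median of -0.20. The counts were 4 and 5 without replicate 3. The number that fell was 3 without control replicate 2 and after centring, and 4 without GW1516 replicate 1. Histone genes, the chromatin packaging proteins, gave 0 up and 4 down of 36 (11.1% down). Without replicate 3 the histone counts were 1 and 4, no histone gene fell without control replicate 1 or after centring, and 2 fell without control replicate 2. Ribosomal protein genes gave 1 up and 1 down of 67, with 5 up and 1 down without replicate 3, 3 down without GW1516 replicate 1 or 2 and 4 down after quantile normalization. Proteasome genes gave 0 up and 1 down of 38, a count that was the same without replicate 3, 0 down without any 1 of the controls and after centring, and 3 down without GW1516 replicate 1 or 2 and after quantile normalization. RAR targets gave 2 up (Rara and Tgm2) of 20 measured (10.0%, beside 1.89% of all genes) and 0 down. Of these 20, 1 rose without GW1516 replicate 1 or 3 or control replicate 1 or 3, and 0 rose without control replicate 2 and after centring. Interferon-response genes gave 0 calls of 22 in the limma fit, with and without replicate 3. Of the 22, 2 had an unadjusted p under 0.05, beside 15.4% of all genes. In the list for NF-κB, Rel, one of its subunits, rose by 0.91 (adjusted p = 0.00518), a robust call, and it was 1 of 22 measured. Among 13 commonly used reference genes, Tfrc, the transferrin receptor, rose by 0.75 (adjusted p = 0.000984), also robust.

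**Figure D4:**
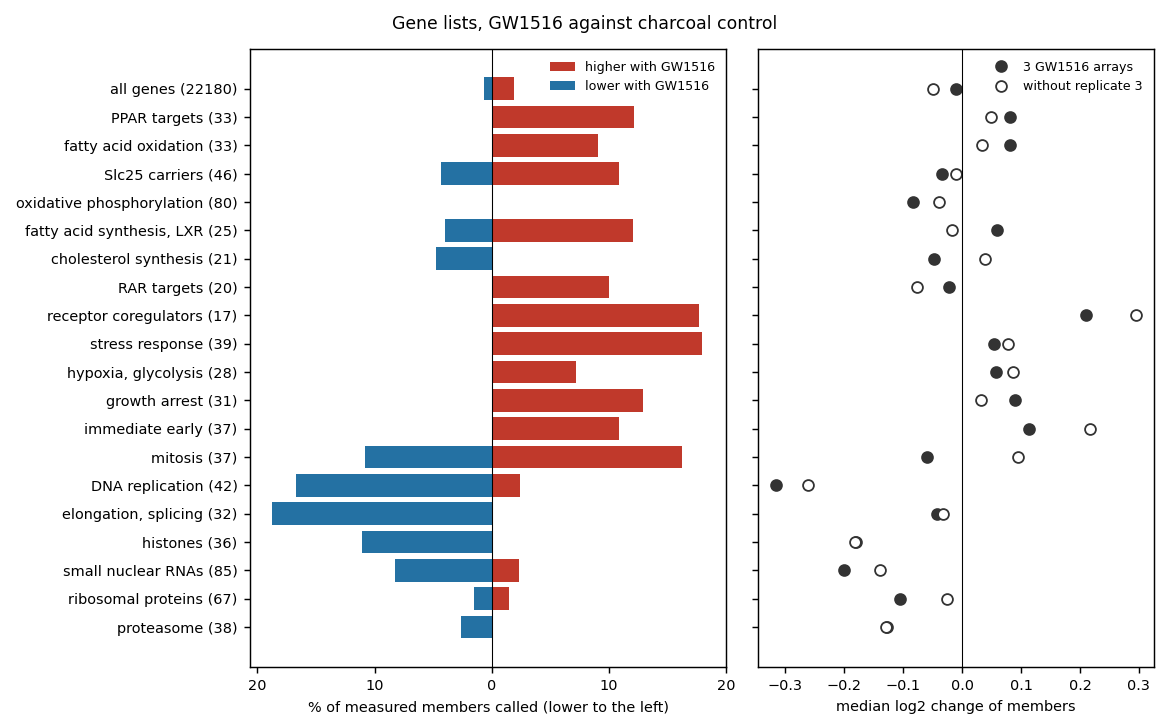
Share of the measured members of each list called higher (right) or lower (left) with GW1516, and the median log2 change of each list with all arrays (filled) and without replicate 3 (open); numbers in brackets are the measured members. All genes, with 1.89% called higher and 0.681% lower, are in the top row, and replication has the lowest median, -0.32.

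The largest rises included genes of no shared pathway. Uprt, which resembles uracil phosphoribosyltransferases, was at 4.91, 4.65 and 4.83 in control and at 6.50, 6.23 and 6.47 with GW1516. The groups were more than 1 apart, and the rise was 1.61 (SE 0.15), or 3.04-fold (adjusted p = 2.2e-05). Postn, a secreted matrix protein, was at 4.73, 4.12 and 5.36 in control and at 6.14, 6.07 and 6.63 with GW1516, a rise of 1.55 (SE 0.22, adjusted p = 0.00116) over controls that were themselves spread by more than 1. Tmem154, a membrane protein, was at 5.81, 5.19 and 5.72 in control and at 6.76, 6.79 and 6.94 with GW1516, a rise of 1.25 (SE 0.14, adjusted p = 0.000396).

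Usp9x, a deubiquitinase, rose by 1.27 (SE 0.20), and Scaper, a cyclin A-binding protein of the endoplasmic reticulum, rose by 1.27 (SE 0.20). Atxn7l1, a relative of a SAGA subunit, rose by 1.53 on the probe set used, while its other 2 probe sets differed by -0.04 and 0.30. The set used was kept for its mean over all arrays, those of the ligands included. In control it was at 2.86, below the 3.95 of the set that differed by -0.04, so the rise depends on this choice. The 6 genes Uprt, Postn, Tmem154, Usp9x, Scaper and Atxn7l1 kept their calls with each array left out and under both scalings. For Atxn7l1 this refers to the probe set used. Stxbp3-ps, annotated as a pseudogene, was called higher, and as it was below background in control no size is given. Rps23, a ribosomal protein gene, rose by 1.67 (adjusted p = 0.0202) from a control mean near background, a call lost without control replicate 1, control replicate 2 or GW1516 replicate 2, and its signal cannot be assigned with certainty among the many copies of such genes.

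The largest fall was that of Rnu3a, the U3 small nucleolar RNA that takes part in the cleavage of ribosomal precursor RNA. It was at 6.64, 6.96 and 6.66 in control and at 3.45, 4.61 and 4.99 with GW1516, a fall of 2.40 on the log2 scale (SE 0.34), 5.29-fold (adjusted p = 0.00116). U3 genes are near-identical copies, so this value cannot be tied to 1 of them, and the GW1516 arrays were spread by more than 1. Scarna6 and Scarna17, guide RNAs of Cajal bodies, fell by 0.95 (adjusted p = 0.00116) and 0.92 (adjusted p = 0.00375) on the log2 scale. Fem1a, a substrate receptor of a ubiquitin ligase, was at 5.22, 4.50 and 5.04 in control and at 3.43, 3.75 and 2.97 with GW1516, a fall of 1.53 on the log2 scale (SE 0.21, adjusted p = 0.000881). Rnu3a, Scarna6, Scarna17 and Fem1a were robust.

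Several of the other large falls were smaller without replicate 3, though still called. Fam207a was at 5.63, 5.55 and 5.56 in control and at 5.06, 4.80 and 3.04 with GW1516, a fall of 1.28 on the log2 scale with replicate 3 and 0.65 (adjusted p = 0.0139) without it. Zmynd19 was between 6.92 and 7.02 in control and at 6.45, 6.49 and 5.09 with GW1516, a fall of 0.95 with replicate 3 and 0.49 (adjusted p = 0.0187) without it. The calls of both genes were lost without any 1 of the controls and after centring. Itpa, which clears inosine triphosphate, fell by 1.12 with replicate 3 and 0.70 (adjusted p = 0.00837) without it, a call lost without control replicate 3 and after centring, and Chmp2a, a subunit of the ESCRT-III membrane-scission complex, fell by 1.02 and 0.63 (adjusted p = 0.0007), a call lost after centring. P2ry6, a nucleotide receptor, fell by 0.92 and 0.61 (adjusted p = 0.0209), a call lost without control replicate 1 or 2 and after centring. Map2k3os, an antisense transcript that the array may not tell from its partner, fell by 1.00 on the log2 scale, by 0.80 (adjusted p = 0.0492) without replicate 3, and lost its call without control replicate 2 and after centring.

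GW1516 was then set against the RAR agonists, to find which changes differed between the receptors' ligands. This contrast, GW1516 minus the mean of retinoic acid and TTNPB, uses no control array. It called 31 of 22180 genes (0.14%), 16 higher (0.0721%) and 15 lower (0.0676%) with GW1516, and 51 (0.23%) without GW1516 replicate 3. Of the 16 that were higher, 9 had risen and 3 had fallen against control, and of the 15 that were lower, 3 had risen. The count was 18 without retinoic acid replicate 2 or without retinoic acid replicate 3, and 80 and 85 without GW1516 replicate 1 or 2.

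Slc25a34 and Cpt1a were among the 4 genes with the largest positive differences. Slc25a34 was at 2.83, 2.90 and 2.87 with retinoic acid and at 2.98, 2.63 and 2.83 with TTNPB, all below the lowest GW1516 array, 4.21. GW1516 exceeded the mean of the RAR agonists by 1.51 (95% interval 1.04 to 1.97, adjusted p = 0.00562), and by 1.38 (adjusted p = 0.0174) without replicate 3. Cpt1a was at 7.10, 7.16 and 7.08 with retinoic acid and at 6.99, 6.70 and 6.97 with TTNPB, again below every GW1516 array. The difference was 0.83 (95% interval 0.65 to 1.02, adjusted p = 9.7e-05). Against the shared controls the changes with retinoic acid and TTNPB were -0.05 and -0.10 for Slc25a34 and -0.01 and -0.24 for Cpt1a.

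The promoter of Slc25a34 is shown for that reason, chosen after its values were seen. Its window is chr4:141623785-141624084 on the minus strand of GRCm38.p6, with the same marking of hexamers as above.
Slc25a34: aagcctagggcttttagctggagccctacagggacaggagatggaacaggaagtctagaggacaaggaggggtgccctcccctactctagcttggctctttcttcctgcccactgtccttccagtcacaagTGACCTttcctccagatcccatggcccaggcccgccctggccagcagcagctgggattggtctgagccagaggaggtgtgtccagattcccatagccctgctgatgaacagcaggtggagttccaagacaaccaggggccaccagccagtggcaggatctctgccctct
It held 1 hexamer and 0 full elements.

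Rhob, an endosomal small GTPase, was above control with GW1516 and below it with both RAR agonists. It was at 8.20, 8.33 and 8.34 with GW1516, at 7.56, 7.59 and 7.51 with retinoic acid and at 7.43, 7.62 and 7.66 with TTNPB, against 8.02, 7.85 and 7.97 in control. GW1516 exceeded the RAR agonists by 0.73 (95% interval 0.58 to 0.88, adjusted p = 3.36e-05). Its rise over control of 0.35 (adjusted p = 0.0286) was lost without any 1 of the controls or GW1516 replicate 2 and after centring. Phxr4, a little-studied transcript, was at 2.40, 1.91 and 2.39 with GW1516 and between 0.91 and 1.51 in the 6 RAR agonist arrays. It was called higher with GW1516 (adjusted p = 0.000261), but its means with retinoic acid, 1.10, and in control, 1.22, were below background, so no size is given.

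Other genes lay below control with all 3 ligands and were higher with GW1516 than the mean of the RAR agonists. Nop2, a methyltransferase of ribosomal RNA, was at 8.17, 8.19 and 8.16 in control, at 7.55, 7.71 and 7.50 with GW1516 and between 7.03 and 7.23 with the RAR agonists. It differed by 0.46 (95% interval 0.31 to 0.61, adjusted p = 0.00786). H1f5, a linker histone, differed in the same way by 0.41 (adjusted p = 0.00617), with 0.69 (adjusted p = 7.38e-05) against retinoic acid alone and 0.13 (95% interval -0.02 to 0.28, adjusted p = 0.53) against TTNPB alone. Ror2, a Wnt5a receptor, differed by 0.59 (adjusted p = 0.0191), while its difference from control with GW1516, -0.16 (adjusted p = 0.55), was not called. Against TTNPB alone neither Nop2 (0.41, 95% interval 0.24 to 0.59, adjusted p = 0.0883) nor Ror2 (0.52, 0.27 to 0.76, adjusted p = 0.152) passed. Nop2, H1f5 and Ror2 each lost this call after centring, and Ror2 also without retinoic acid replicate 2 or 3 or TTNPB replicate 1.

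The lower side included Cyp26b1, a classical RAR target. This gene, whose enzyme degrades retinoic acid, was at 3.34, 3.53 and 3.38 with GW1516, within the range of the controls, 3.10 to 3.71, and at 6.21, 6.06 and 5.83 with retinoic acid and 4.15, 3.64 and 4.25 with TTNPB. The difference was -1.61 (95% interval -1.91 to -1.30, adjusted p = 2.17e-05), made up of -2.61 (adjusted p = 7.65e-08) from retinoic acid and -0.60 (95% interval -0.95 to -0.24, adjusted p = 0.26) from TTNPB. Slc6a13, a GABA transporter, was at 4.73, 4.45 and 4.97 with GW1516 and between 5.35 and 6.19 with the RAR agonists, a difference of -1.06 (adjusted p = 0.00014). Gabrp, the π subunit of the GABA-A receptor, was at 9.64, 9.68 and 9.72 with GW1516, at 10.6 to 10.7 with retinoic acid and at 9.95 to 10.1 with TTNPB, a difference of -0.64 (adjusted p = 1.13e-05). Rflna, an actin-organising refilin, differed by -1.08 (adjusted p = 0.00751) and Cldn3, a tight-junction claudin, by -0.52 (adjusted p = 0.000881). Against TTNPB alone Cldn3 passed (-0.45, adjusted p = 0.023), as did Cpt1a, Slc25a34 and Rhob, while Slc6a13 (-0.67, adjusted p = 0.0883), Gabrp (-0.31, adjusted p = 0.0883) and Rflna (-0.79, adjusted p = 0.185) did not. Each of these 7 genes passed against retinoic acid alone.

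Cpt1a, Slc25a34, Rhob, Cyp26b1, Slc6a13 and Gabrp kept this call in each alternative fit in which this difference was tested. Most changes seen against control did not differ detectably from those of the RAR agonists. Of the 570 genes, 15 differed, and for 441 the 95% interval of the difference lay within 1.5-fold either way. The median change of the 570 was itself 1.57-fold either way. An interval within that margin therefore does not show that a change was shared with the RAR agonists. The genes were chosen on the GW1516 arrays, which favours a larger change there. Over the 419 that rose, the median against control was 0.67 with GW1516, 0.63 with retinoic acid and 0.38 with TTNPB, and over the 151 that fell it was -0.55, -0.47 and -0.44, all against the same 3 controls.

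Among the carriers and targets, Slc25a42 lay between. Its difference from the mean of the RAR agonists was 0.38 (adjusted p = 0.0726), from TTNPB alone 0.53 (95% interval 0.33 to 0.73, adjusted p = 0.0391) and from retinoic acid alone 0.23 (0.03 to 0.43, adjusted p = 0.468). For Klf10 the difference was 0.25 (adjusted p = 0.33), and for Cdc6 it was -0.03 (adjusted p = 0.95). Of the 42 replication genes, 0 differed between GW1516 and the RAR agonists, with a median difference of -0.01, and of the 33 PPAR targets Cpt1a was the 1 that differed.

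**Figure D5:**
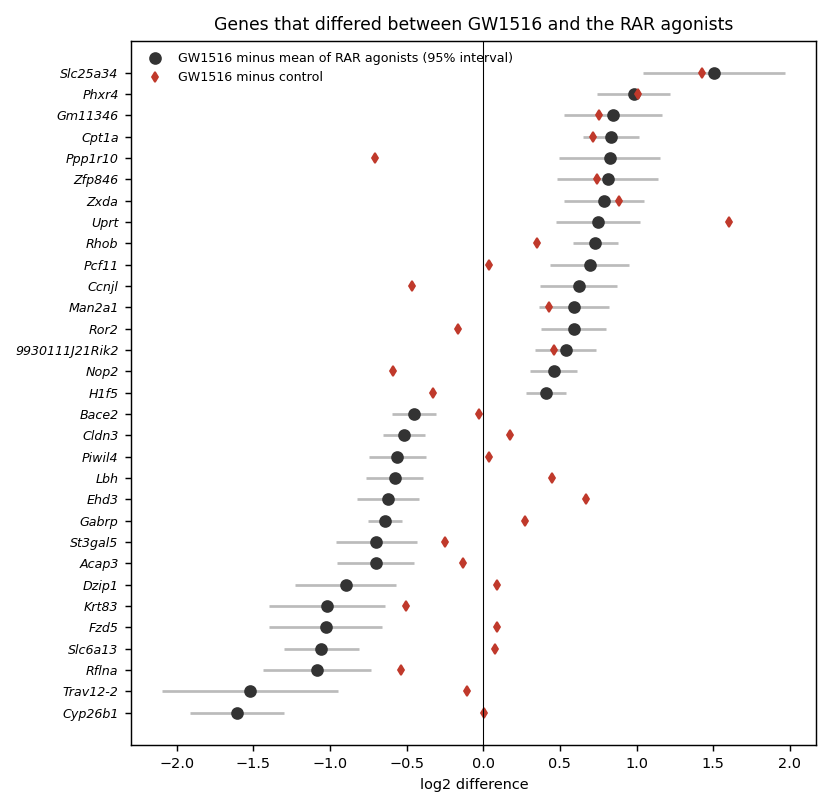
Log2 difference between GW1516 and the mean of retinoic acid and TTNPB for the 31 genes called in that contrast (points, with 95% intervals), and the change of the same genes with GW1516 against control (diamonds). Slc25a34 and Cpt1a are to the right in both, the point of Phxr4 rests on levels below background, while Cyp26b1 is at -1.61 against the RAR agonists and at 0.01 against control.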

How the data were processed

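NaF cells were profiled on 18 Affymetrix mouse arrays in 6 groups of 3. The deposited values are log2 expression values per probe set, processed with Partek per the submitters' processing notes, with the version and the normalization method not given in the sources used here. Full-serum arrays had a 75th percentile of 2.28 to 2.57 against 4.48 to 4.81 in charcoal serum. Of 41345 probe sets, 23521 carried 1 gene symbol, 1814 several and 16010 none in GEO's platform annotation. Of those with 1 symbol, 23328 matched RefSeq (GRCm38.p6), and the probe set with the highest mean over the arrays was kept for each of 22180 genes.

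From these values, group means over all 18 arrays were fitted with limma 3.58.1 in R 4.3.3 (eBayes with a variance trend, 2-sided), with 12 residual degrees of freedom. Adjusted p-values are Benjamini-Hochberg over the 22180 genes, at 0.05. The number of arrays, 3 per group, limits the precision. The scripts were tested on simulated data. Named genes are the 12 largest rises and 12 largest falls called with and without GW1516 replicate 3 with groups not overlapping, up to 6 called members of each list, a fixed set of receptors and targets, and up to 8 genes each way against the RAR agonists. The members and lists were chosen with earlier results of these data known. Alternatives covered the arrays fitted, the replicate block, the variance model, scaling, array weights, dim genes, probe sets, thresholds and each array left out.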

Additional observations from a re-analysis of the deposited data

How the results depend on the processing

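The 570 calls became 3 on the 6 arrays alone, 266 after centring on medians, 1122 with array weights, 925 with dim genes left out, 162 at an adjusted p of 0.01 and 356 at a fold of at least 1.5, and ranged from 198 to 711 with 1 array left out. They were 412 on the 12 charcoal-serum arrays, 498 with the replicate number as a block, 670 without a variance trend, 597 with a robust prior, 812 after quantile normalization and 544 with the mean of probe sets. Deviations of same-numbered arrays from their group means correlated at -0.23 to 0.10, with 0 of 3 GW1516 arrays closest to their own number. Such deviations sum to 0 in each group of 3, so an outlying array also shifts those of the others. They therefore cannot decide whether the arrays were paired. The block left 31 calls against the RAR agonists. Chosen after the data were seen, fits without GW1516 replicate 3 gave 359 on its own 5 arrays, 861 on charcoal serum and 807 after quantile normalization. The 31 calls against the RAR agonists became 9 on their own arrays, 19 on charcoal serum, 15 centred, 71 with quantile normalization, 112 with weights, 63 without dim genes and 16 at 0.01, and ranged from 18 to 85 with 1 array left out; the 2 fits added after the data were seen gave 81 and 83. The causes were not tested. Over 94 called genes, 1298 of 1691 alternative values, those added after seeing the data left out, kept direction and call, 393 lost the call and 0 reversed. Values that reversed belong to genes that did not pass. Leaving out 1 array gave Rxra -0.073 to 0.14, Fabp5 -0.15 to 0.12, Cat -0.32 to 0.23, Cyp26b1 -0.15 to 0.16, Slc6a13 -0.052 to 0.21 and Acot2 -0.085 to 0.73. Quantile normalization gave Fabp5 -0.042 and Cyp26b1 -0.012, and array weights gave Fabp5 -0.073, Cat 0.17 and Cyp26b1 -0.054. The added fits gave Fabp5 -0.15 and -0.29, Cat 0.23 and 0.19, Cyp26b1 -0.088, and Slc6a13 -0.052 and -0.20.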

Other observations

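Genes that rose were longer than those that fell. On RefSeq gene spans (GRCm38.p6) the median was 47.4 kb over 418 of the 419 genes that rose and 12.2 kb over the 151 that fell, against 21.9 kb over 10401 genes above background in both groups. These are descriptions, with no test.

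Ero1a, which reoxidises protein disulfide isomerase in the endoplasmic reticulum, was named here after its values were seen. It was at 8.48, 8.49 and 8.63 in control and at 9.55, 9.55 and 9.49 with GW1516, a rise of 0.99 (SE 0.07, limma adjusted p = 4.9e-07). With Arrdc3 and Uprt it was called in each alternative fit not added after seeing the data, apart from the fit without dim genes, which was not counted here. P4ha1, a collagen prolyl hydroxylase, rose by 0.53 (adjusted p = 0.00332), and Bnip3, a mitophagy receptor, rose by 0.62 (adjusted p = 0.0227), a call lost without control replicate 2, control replicate 3 or GW1516 replicate 2. They were the 2 of 28 measured hypoxia and glycolysis genes that were called (7.14% up, beside 1.89% of all genes), and 0 fell. The number that rose ranged from 1 to 3 with 1 array left out, and was 1 without control replicate 2. Tiparp, a target of the aryl hydrocarbon receptor, rose by 0.98 (adjusted p = 0.0161), a call lost without control replicate 2 or GW1516 replicate 1 or 2 and after centring. It was at 3.76, 3.21 and 3.58 in control and at 4.69, 4.90 and 3.89 with GW1516, replicate 3 lying closest to the controls.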
